A study of Rattus norvegicus with 6 samples.

Results

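Pparg, Cebpa, Adipoq, Fabp4, Lpl, Plin1, Cidec, Scd, Fasn and Angptl4 are 10 rat genes that encode adipocyte regulators, adipocyte secreted proteins and proteins that make, store or release lipid. They were found by matching the accession of each array probe, without its version, to the RefSeq symbol. Of the 10 genes, 9 had a probe, with 11 probes of 41012 on the array between them, and all 9 were above background and tested. No probe accession matched Plin1, the perilipin gene of the droplet coat, which was not analysed here. The whole array gave 21847 genes and unnamed probes to test, of which 5697 had a symbol.

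In adipocytes the nuclear receptor encoded by Pparg, working with the C/EBP factors, switches on the genes of fat uptake, synthesis and storage. Fatty acids enter the cell after lipoprotein lipase frees them from circulating particles, or are made by fatty acid synthase and desaturated, and are stored as triglyceride in a lipid droplet wrapped in perilipin and CIDE proteins. Marrow stromal progenitors can become osteoblasts or adipocytes, and many of these genes therefore serve as a readout of marrow adipogenesis.

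The study asked how bone marrow cells kept in osteogenic culture respond to LIPUS, low-intensity pulsed ultrasound, which presses on cells with short bursts of sound. The cells came from male rats, 8 weeks old. There were 3 LIPUS samples and 3 control samples with no treatment, all taken on day 10 of culture, and Cy3-labelled RNA of each was hybridised to 1 single-colour array. The labels give neither the strain nor the ultrasound settings and do not say whether replicates came from separate animals or cultures, so the p-values measure only the spread between these samples.

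Values are log2 spot brightness after background correction, relative to the 75th percentile of the same array, so a level of 0 is that percentile, and a change is LIPUS minus control with its standard error (SE). Probes above background made up 55.3% to 61.9% of all probes on LIPUS arrays and 53.5% to 61.3% on control arrays. From the position and tilt of the scanned grid, control 1 and control 2 lay on 1 slide, and control 3 lay on another together with the 3 LIPUS arrays. With slide as a fixed block, called slide as a block below, LIPUS is thus compared with control 3 alone. The value from that fit is given beside each named spot-table call among the measured genes and the pathway genes. The number of arrays limits the precision, and in bulk RNA fewer cells of a type and less RNA per cell cannot be told apart.

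Of the 9 measured genes, Cidec, Scd and Angptl4 were higher in LIPUS, 0 were lower and 6 did not pass the test (limma, two-sided, Benjamini-Hochberg adjusted p under 0.05 over all 21847). Across everything tested, 6.63% passed, 2.89% as higher and 3.74% as lower. The median change of the 9 genes was 0.17, against 0.03 over all tested. In these 3 genes every LIPUS array lay above every control array, and in the other 6 the groups overlapped. Groups did not overlap in 27.2% of everything tested, with LIPUS above in 14.4%. The regulators Pparg and Cebpa, the hormone gene Adipoq, the carrier gene Fabp4, the lipase gene Lpl and the synthase gene Fasn were among the genes that did not pass.

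**Figure D1:**
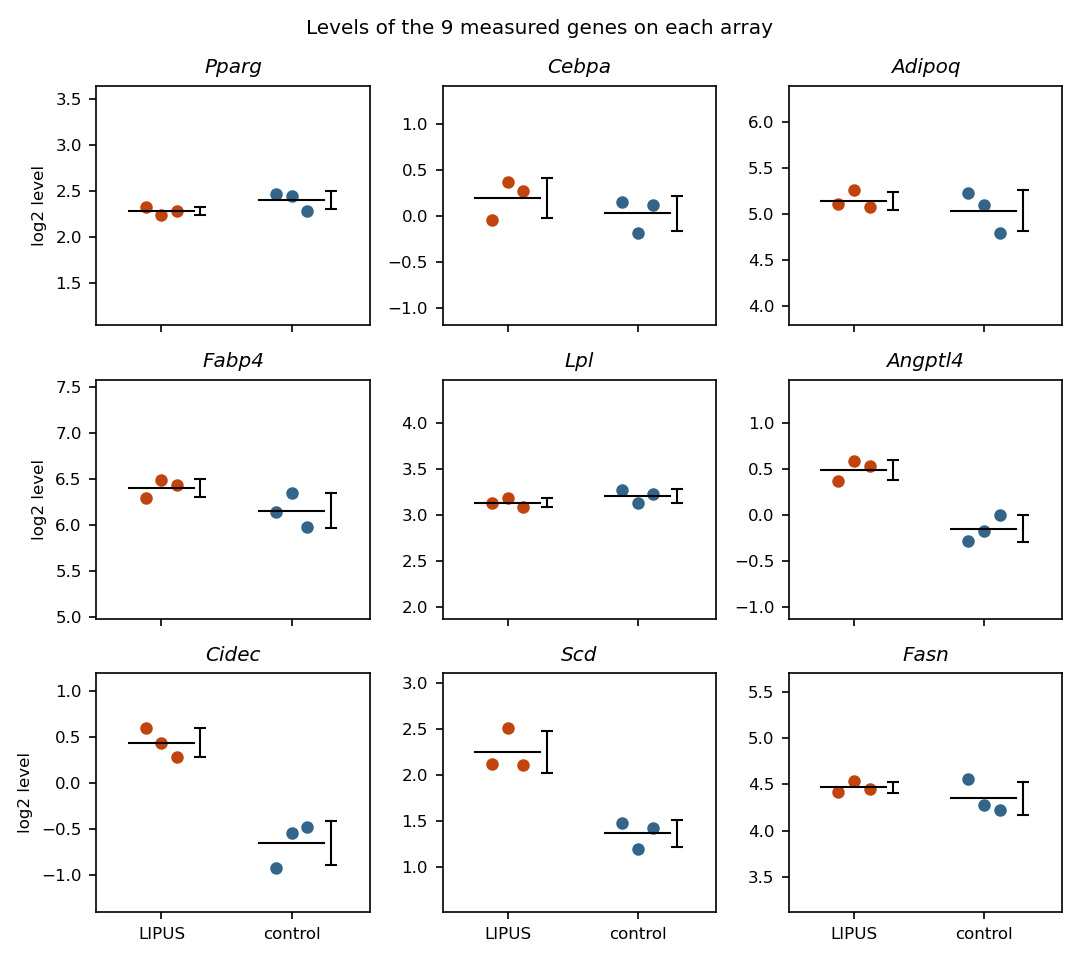
Log2 level of the 9 measured genes on each array, relative to the 75th percentile of the array, with 3 LIPUS arrays on the left and 3 control arrays on the right of each panel; lines are group means, bars are SD, and all panels span the same height. The groups are apart in Angptl4, Cidec and Scd and overlap in the other 6 genes. The Fabp4 spot reached the scanner limit on each array.

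Pparg (NM_013124), the receptor that drives adipocyte differentiation, had log2 levels of 2.33, 2.24 and 2.28 on the LIPUS arrays and 2.47, 2.45 and 2.29 on the control arrays. The LIPUS arrays lay within a narrow band, and control 3 fell inside it, so the groups overlapped. The change was −0.12 ± 0.15, with a 95% confidence interval from −0.46 to 0.23 (limma adjusted p = 0.696). That interval leaves room for a fall by 0.46 or a rise of 0.23 on the log2 scale. In the authors' value table the 3 LIPUS arrays were all below the 3 control arrays, by −0.20 ± 0.14, and the adjusted p in limma was 0.449.

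The Pparg probe is printed 10 times on each array. Averaged over arrays, 9 of the 10 spots read lower in LIPUS and 1 read higher, with differences from −0.33 to 0.04. The spots share 1 probe sequence and 1 RNA sample per array and are not replicates of the treatment.

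Cebpa (NM_012524) encodes C/EBP alpha, which acts with PPAR gamma in the later steps of adipocyte differentiation. It read −0.05, 0.37 and 0.26 on the LIPUS arrays and 0.15, −0.19 and 0.12 on the control arrays. Each group held both high and low arrays, and the change was 0.17 ± 0.18 with an interval from −0.24 to 0.58 (limma adjusted p = 0.628).

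**Figure D2:**
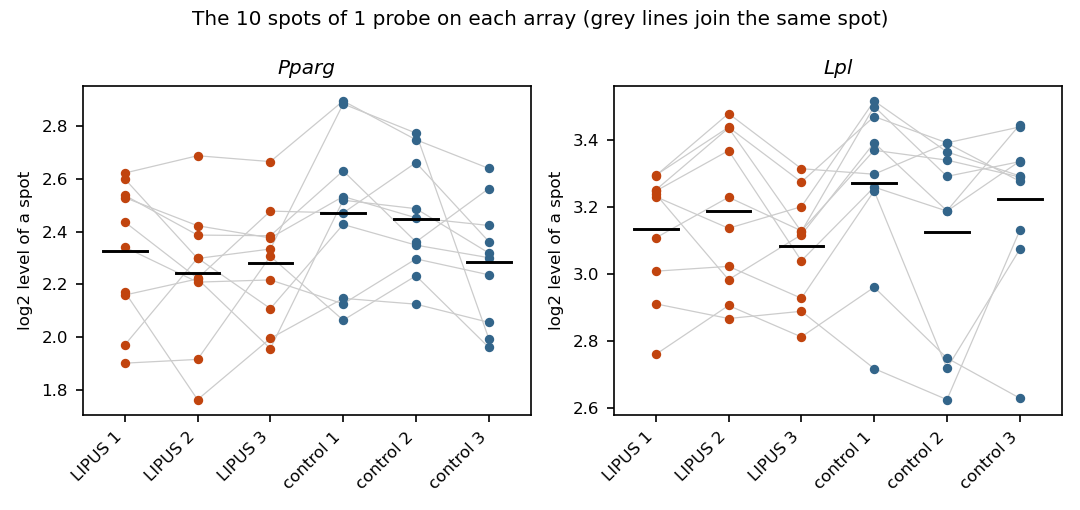
Log2 level of each of the 10 spots of the Pparg probe and of the Lpl probe with 10 spots, on 3 LIPUS arrays at the left and 3 control arrays at the right; black lines are array means and grey lines join the same spot. Averaged over arrays, 9 of 10 Pparg spots and 7 of 10 Lpl spots are lower in LIPUS.

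Adipoq (NM_144744), which encodes the hormone adiponectin secreted by adipocytes, read 5.11, 5.26 and 5.08 on the LIPUS arrays and 5.23, 5.10 and 4.79 on the control arrays. Control 1 was as high as the LIPUS arrays and control 3 was the lowest of all 6. The change was 0.11 ± 0.17 with an interval from −0.28 to 0.50 (limma adjusted p = 0.757). Its sign rested on control 3: without that array the change was −0.015.

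Fabp4 (NM_053365), the fatty acid carrier of the adipocyte cytoplasm, was too bright for the spot tables. Between 41% and 72% of its pixels on the LIPUS arrays and between 35% and 88% on the control arrays were at the scanner limit. Its change there of 0.25 ± 0.17 (limma adjusted p = 0.432) therefore follows mostly from the scaling of the arrays, and no fold is taken from it. In the authors' value table Fabp4 read 6.59, 6.87 and 6.65 on the LIPUS arrays and 6.51, 6.51 and 6.46 on the control arrays. Every LIPUS value lay above every control value, yet the change of 0.21 ± 0.15 did not pass (interval −0.15 to 0.57, limma adjusted p = 0.466). In that table the groups did not overlap in 5 of the 9 genes, 4 with LIPUS above and 1 below, and in 28.5% of everything tested, with LIPUS above in 14%. With the table's log2 and scaling undone, Fabp4 had 14671, 14353 and 13058 in LIPUS and 18890, 15332 and 16837 in control. These lay below the table's highest value of 65503. Before scaling LIPUS was thus the lower group, as it also was for Pparg, Lpl and Fasn. Cidec and Scd were higher in LIPUS there, and Cebpa, Adipoq and Angptl4 overlapped. The arrays differed in brightness, with a 75th percentile in the spot tables of 9.71, 9.44 and 9.57 (log2) in LIPUS and 9.86, 9.56 and 10.03 in control.

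Lpl (NM_012598), the lipase that releases fatty acids from lipoproteins, had a pair of probes that read apart. The probe with 10 spots had levels of 3.13, 3.19 and 3.08 on the LIPUS arrays and 3.27, 3.12 and 3.23 on the control arrays, and the change was −0.07 ± 0.15 (interval −0.41 to 0.27, limma adjusted p = 0.819). Of those spots, 7 read lower and 3 higher in LIPUS, by −0.23 to 0.06. The other probe, with 1 spot, read 1.23, 1.36 and 1.19 on the LIPUS arrays and 0.42, 0.90 and 1.16 on the control arrays. All its LIPUS values lay above all its control values, but by little over control 3, and its change of 0.43 ± 0.21 did not pass with every probe tested separately (limma adjusted p = 0.256). The sign for Lpl thus depends on the probe.

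Angptl4 (NM_199115) encodes a secreted inhibitor of lipoprotein lipase and is a known target of PPAR receptors. It read 0.37, 0.58 and 0.52 on the LIPUS arrays and −0.29, −0.17 and −0.00 on the control arrays. The LIPUS arrays were all higher, with control 3 the nearest to them. Its mean was 0.49 ± 0.11 in LIPUS and −0.16 ± 0.15 in control (SD, n = 3 each), a change of 0.64 ± 0.16 or 1.56-fold (limma adjusted p = 0.0456). The unscaled spot brightness was 1021, 974 and 1024 in LIPUS and 721, 610 and 989 in control, where control 3 overlapped with LIPUS 2.

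The Angptl4 call was close to the threshold. It held when control 3 was left out (adjusted p = 0.0324) and was lost without any 1 of the other arrays (up to 0.159). In the authors' value table the change was 0.94 ± 0.26 and did not pass (limma adjusted p = 0.110). With slide as a block it was 0.49 (0.273), and with spike-in scaling 0.27 (0.447).

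Cidec (NM_001024333), which encodes a protein of the contact sites where lipid droplets fuse and grow, changed the most of the 9 genes. It read 0.60, 0.43 and 0.28 on the LIPUS arrays and −0.93, −0.55 and −0.48 on the control arrays. The gap between the groups was wider than the spread within either. The mean was 0.44 ± 0.16 in LIPUS and −0.65 ± 0.24 in control (SD, n = 3 each), a change of 1.09 ± 0.18 with an interval from 0.68 to 1.497, or 2.13-fold (limma adjusted p = 0.00807). The direction was already present before scaling, since the unscaled spot brightness was 1219, 869 and 847 in LIPUS and 432, 452 and 674 in control.

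The authors' value table gave Cidec a larger change. There it read 1.01, 0.64 and 0.89 in LIPUS and −0.93, −1.22 and −0.76 in control, a change of 1.82 ± 0.19 or 3.52-fold (limma adjusted p = 0.0140), the single measured gene of the 9 to pass in that table. There 3.68% of everything tested passed, 1.31% as higher. The spot-table call remained whichever array was left out (adjusted p from 0.0151 to 0.0405), while the value-table call was lost without control 1 (0.0782) or control 2 (0.0715). Against control 3 alone, the control that shared a slide with LIPUS, the LIPUS arrays were higher by 1.08, 0.91 and 0.76. With slide as a block the change was 0.92 and the limma adjusted p rose to 0.124.

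Scd (NM_139192) encodes a stearoyl-CoA desaturase, which puts the double bond into saturated fatty acids before they are stored. It read 2.12, 2.51 and 2.11 on the LIPUS arrays and 1.48, 1.20 and 1.42 on the control arrays, again with all LIPUS arrays higher. The mean was 2.25 ± 0.23 in LIPUS and 1.37 ± 0.15 in control (SD, n = 3 each), a change of 0.88 ± 0.18 with an interval from 0.48 to 1.28, or 1.84-fold (limma adjusted p = 0.0191). The unscaled spot brightness kept the order, with 3593, 3926 and 3201 in LIPUS and 2542, 1665 and 2759 in control.

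The Scd change was of like size in the authors' value table, 0.95 ± 0.18, but just missed the threshold there (limma adjusted p = 0.0514). The spot-table call was lost without control 1 (0.0539), control 2 (0.0712) or LIPUS 2 (0.0780). Against control 3 alone the LIPUS arrays were higher by 0.70, 1.09 and 0.68, and with slide as a block the change was 0.83 (adjusted p = 0.164).

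Fasn (NM_017332), the synthase that builds the saturated fatty acids on which desaturases act, did not pass. Its brighter probe read 4.41, 4.54 and 4.45 on the LIPUS arrays and 4.56, 4.28 and 4.22 on the control arrays, with control 1 the highest of all 6. The change was 0.12 ± 0.16 with an interval from −0.25 to 0.48 (limma adjusted p = 0.718), and its second probe read −0.01 ± 0.17. The difference between the changes of Scd and Fasn was not tested.

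**Figure D3:**
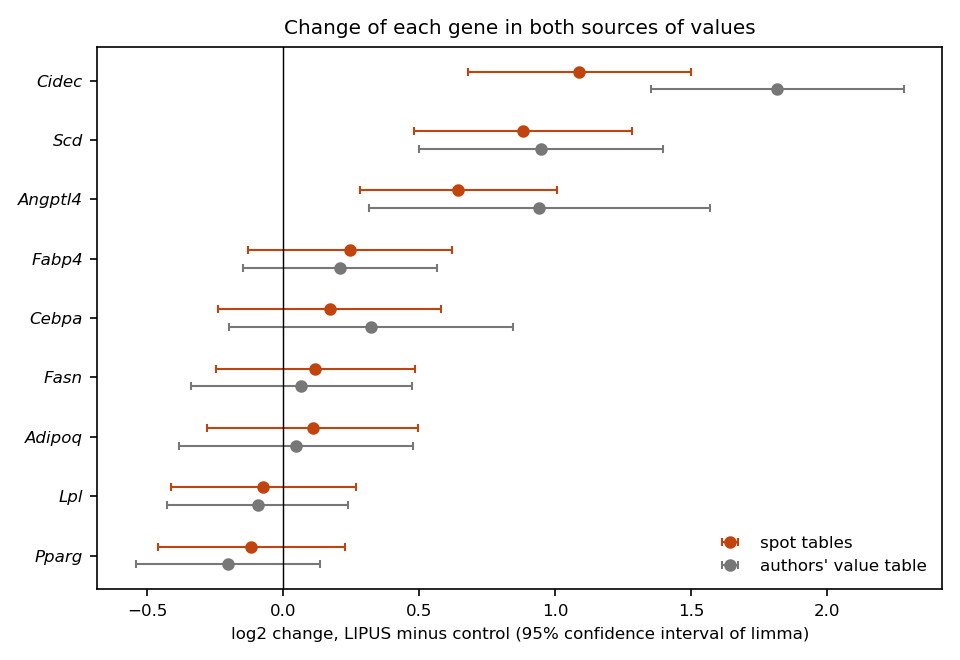
Log2 change, LIPUS minus control, of the 9 measured genes with 95% confidence intervals of limma, in the spot tables (orange) and in the authors' value table (grey). The intervals of Cidec, Scd and Angptl4 lie above 0 in both, and those of the other 6 genes include 0 in both.

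The promoters of Cidec, Scd and Angptl4 are printed because these are the 3 genes that rose, and a shared motif would be a first thing to look for. RefSeq promoters of build GRCr8 run from 250 bases before to 50 bases after the start of each gene and are written here in the direction of transcription, with motif matches in capitals. Cidec lies at chr4:148137066-148137365, Scd at chr1:253231682-253231981 and Angptl4 at chr7:15258632-15258931, all on the minus strand.
Cidec: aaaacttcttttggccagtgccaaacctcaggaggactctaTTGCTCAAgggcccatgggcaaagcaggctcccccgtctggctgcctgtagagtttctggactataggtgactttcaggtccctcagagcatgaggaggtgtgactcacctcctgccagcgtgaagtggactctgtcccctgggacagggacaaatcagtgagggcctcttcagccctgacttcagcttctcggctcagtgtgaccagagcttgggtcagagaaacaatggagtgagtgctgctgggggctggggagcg
Scd: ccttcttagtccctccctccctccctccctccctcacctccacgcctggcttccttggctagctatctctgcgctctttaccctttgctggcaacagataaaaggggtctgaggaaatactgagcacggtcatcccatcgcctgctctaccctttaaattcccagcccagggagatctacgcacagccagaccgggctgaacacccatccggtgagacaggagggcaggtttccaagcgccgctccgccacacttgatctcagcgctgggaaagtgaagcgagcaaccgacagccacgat
Angptl4: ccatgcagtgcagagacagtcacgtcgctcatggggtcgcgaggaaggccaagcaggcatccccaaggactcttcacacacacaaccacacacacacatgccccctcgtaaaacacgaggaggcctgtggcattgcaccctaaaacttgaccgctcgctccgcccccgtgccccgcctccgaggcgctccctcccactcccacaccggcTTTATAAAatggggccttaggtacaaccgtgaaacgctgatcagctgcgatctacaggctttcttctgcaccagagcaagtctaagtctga

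A total of 6 motifs were searched on both strands: the nuclear receptor half-site AGGTCA, the PPAR-RXR repeat (a pair of AGGTCA copies in a row with 1 base of any kind between them, so that each match also holds the half-site), the C/EBP palindrome TTGCNNAA, the CCAAT box CCAAT, the TATA box TATAAA and the SREBP site TCACNCCAC. Cidec held a C/EBP palindrome at position −209 from its start, a motif present in 10.6% of 33469 rat promoters of the same length. Angptl4 held a TATA box on each strand, in overlap at positions −41 and −39, and 14.2% of promoters held one. None of the 6 motifs occurred in the Scd window. The PPAR-RXR repeat occurred in 0.0538% of all promoters and its half-site in 16.2%, and neither was in the windows of these 3 genes, which says only that these letters are not in these 300 bases. Of the 10 genes, 7 had a promoter in the table, and Fabp4, Lpl and Fasn did not.

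The genes around the 9 were read from 9 pathway lists with 164 symbols, of which 103 were tested. Of these 103, 0 were higher in LIPUS, 4 were lower and 99 did not pass, where 6.63% of everything tested passed, and their median change was 0.02. The authors' value table had 0 higher and 4 lower, which were Ddit3 and Lepr and, named after their values were seen, Rxrg (−1.13, limma adjusted p = 0.0491) and Apoe. None of the lists had a called rise in either source. The medians ran from −0.18 for fatty acid synthesis and desaturation to 0.32 for lipolysis.

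Among 19 tested transcription regulators of adipogenesis, 1 was lower and 18 did not pass, with a median of 0.06. The gene that fell was Egr2, an early zinc finger factor of the differentiation cascade, with a mean level of −1.42 ± 0.29 in LIPUS and −0.37 ± 0.06 in control (SD, n = 3 each) and a change of −1.06 ± 0.18 (limma adjusted p = 0.00926). The Egr2 change was −1.56 ± 0.71 in the authors' value table (limma adjusted p = 0.275) and −1.04 with slide as a block (0.110), and passed in neither. Tle3, a corepressor family member that acts with PPAR gamma, read 0.58 ± 0.16 and did not pass (0.0607). The partners C/EBP beta (Cebpb, 0.02 ± 0.17), C/EBP delta (Cebpd, 0.04 ± 0.17) and retinoid X receptor alpha (Rxra, −0.01 ± 0.20) also did not pass. They are named after their values were seen.

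Inhibitors of adipogenesis had 6 tested genes, 1 of them lower and 5 not passing, with a median of 0.01. Ddit3, which encodes the stress-response factor CHOP that blocks C/EBP proteins, had a mean level of 1.29 ± 0.09 in LIPUS and 2.23 ± 0.07 in control (SD, n = 3 each). The change of −0.94 ± 0.15 passed (limma adjusted p = 0.00728), also in each of the 6 fits that left out 1 array. It passed in the authors' value table too (−1.03 ± 0.15, 0.0241). There it held in only 1 of the 6 fits that left out 1 array (limma adjusted p from 0.0460 to 0.111). With slide as a block the change was −1.02 and the adjusted p 0.0559. Nr2f2, which encodes the nuclear receptor COUP-TFII, read −0.55 ± 0.21 (0.157).

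None of the other 7 tested lipid droplet genes passed. Their changes ran from −0.26 to 0.09, and their median was −0.00. The methyltransferase-like gene Mettl7a had the smallest p among them, with −0.26 ± 0.18 (limma adjusted p = 0.435), and read 0.16 when its probes were averaged. The difference between Cidec and this list was not tested.

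Lipolysis genes had 9 tested members with a median of 0.32, of which 1 was lower and 8 did not pass. Lipa, which encodes the acid lipase of lysosomes, had a change of −0.65 ± 0.17 that missed the threshold (limma adjusted p = 0.0552). The glycerol channel gene Aqp7 (0.72 ± 0.19, adjusted p = 0.0568) and the hormone-sensitive lipase gene Lipe (0.47 ± 0.17, 0.149), both named after their values were seen, lay above 0 and did not pass.

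All 13 tested genes of fatty acid synthesis and desaturation other than Scd and Fasn did not pass. Of the 13, 4 lay above 0, against 11799 of all 21847 tested. The desaturase gene Scd2, named after its values were seen, read −0.08 ± 0.18 (limma adjusted p = 0.848). Insig1, which holds the SREBP machinery in the endoplasmic reticulum, read −0.64 ± 0.20 (limma adjusted p = 0.0988). Triglyceride synthesis had 9 tested genes with a median of 0.29 and no call, and the acyltransferase gene Dgat2 read 0.49 ± 0.17 (0.126). The spot of Acsl1 in that list, named after its values were seen, reached the scanner limit on every array. In the authors' value table Acsl1 read 0.21 ± 0.24 (limma adjusted p = 0.658). The 8 tested genes of lipoprotein lipase action and fatty acid uptake had a median of 0.19 and no call, with the hepatic lipase gene Lipc at 0.54 ± 0.21 (0.162). The spots of the apolipoprotein gene Apoe and the fatty acid carrier gene Fabp5, both named after their values were seen, reached the scanner limit on every array. In the authors' value table Apoe was lower in LIPUS (−0.93 ± 0.15, limma adjusted p = 0.0347), Fabp5 read −0.52 ± 0.17 (0.162) and the median of the list was −0.03.

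The 17 tested PPAR target genes of fatty acid oxidation did not pass either, with a median of −0.06, and the mitochondrial carrier gene Ucp2 read −0.69 ± 0.23 (limma adjusted p = 0.114). Angptl4 was thus a called PPAR target beside the 17 uncalled ones of this list, and that difference was not tested. The list covers fatty acid oxidation only and holds none of the measured adipocyte genes, such as Cidec and Scd. Among 16 tested hormones, receptors and insulin response genes, with a median of 0.05, the leptin receptor gene Lepr fell, with a mean level of −1.63 ± 0.10 in LIPUS and −0.73 ± 0.34 in control (SD, n = 3 each). Its change of −0.90 ± 0.20 passed (limma adjusted p = 0.0268), and in the authors' value table it was −1.84 ± 0.22 and passed as well (0.0168). The value-table call held in only 2 of the fits that left out 1 array (limma adjusted p from 0.0378 to 0.0785). The spot-table call was lost without LIPUS 1, LIPUS 2, LIPUS 3 or control 1 (up to 0.0966), and with slide as a block the change was −0.89 (0.194). Lepr also marks marrow stromal cells. Nampt, which encodes an enzyme of NAD synthesis, read 0.56 ± 0.18 (0.109).

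**Figure D4:**
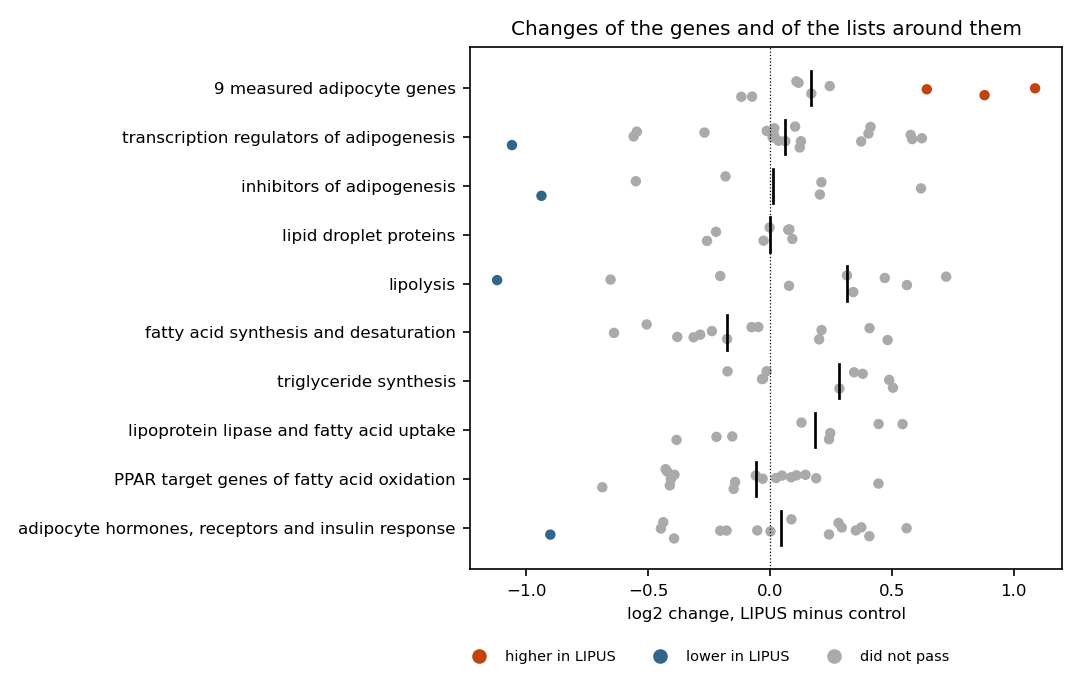
Log2 change, LIPUS minus control, of the 9 measured genes (top) and of the tested genes of 9 pathway lists, 1 point a gene, coloured by whether it passed; black lines are medians. The calls above 0 are Cidec, Scd and Angptl4, and the calls below 0 include Egr2, Ddit3 and Lepr.

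Markers of the cell types that marrow cultures can hold moved between the groups. Of 13 listed adipocyte markers, 9 were tested: Cidec was higher, 0 were lower and 8 did not pass. The hormone gene Lep was not above background, and the spots of Fabp4 and of the adipsin gene Cfd reached the scanner limit everywhere. In the authors' value table Cfd read −0.77 ± 0.16 and missed the threshold (limma adjusted p = 0.0609). The mean of the other 7 ran from 2.04 to 2.23 on the LIPUS arrays and from 1.67 to 1.89 on the control arrays. Without Cidec and Adipoq the mean of the 5 left ran from 1.79 to 1.98 in LIPUS and from 1.48 to 1.78 in control, a narrow gap, and none of these 5 passed. Resistin (Retn, 0.00 ± 0.17) and the insulin-responsive glucose carrier (Slc2a4, −0.05 ± 0.16), named after their values were seen, had the smallest changes.

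Markers of bone, macrophages and vessels lay further apart. Of everything tested, 2.89% were called higher and 3.74% lower. The mean of 7 osteoblast markers ran from 3.19 to 3.37 in LIPUS and from 2.21 to 2.28 in control, with 5 of 12 tested markers higher. The spots of Mepe, called higher, and of Spp1, Bglap, Col1a2 and Sparc, not called, reached the scanner limit on every array. These genes are named after their values were seen, and a missing call at that limit does not show a lack of change. Of the 12 markers, 7 were higher in the authors' value table. The mean of 13 macrophage markers ran from 2.23 to 2.50 in LIPUS and from 3.43 to 3.53 in control, with 9 of 16 lower and 1 higher. Of these 16, 10 were lower and 0 higher in the authors' value table. The spots of C1qa, C1qb and Lyz2, not called, reached the scanner limit on every array. Those of Tyrobp and Cd68, not called, did so on 2 LIPUS and 3 control arrays. Among the called, Clec10a reached it on 3 control arrays and C1qc on 2. The averaged 13 hold Tyrobp, Cd68, Clec10a and C1qc. These genes too are named after their values were seen, and the same limit holds for their missing calls and for the mean. The mean of 5 endothelial markers ran from −0.98 to −0.89 in LIPUS and from 0.10 to 0.17 in control, with 4 lower and with Pecam1, Flt1 and Emcn not above background. Only 1 of these 5 was called lower in the authors' value table. The mean of 9 stromal progenitor markers overlapped, at 2.59 to 2.68 in LIPUS and 2.54 to 2.71 in control. In both sources of values 2 of these 9 were higher and 2 lower, so the mean hides changes in opposite directions. The lymphocyte and erythroid means also overlapped, at −1.12 to −0.81 and −1.69 to −0.98 in LIPUS against −1.05 to −0.76 and −1.69 to −1.48 in control, while the 1 granulocyte marker above background ran from 0.22 to 0.83 in LIPUS and from −0.64 to −0.19 in control. The part of these shifts in the changes of Cidec, Scd and Angptl4 was not tested.

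Likeness of profiles was measured as the root mean square difference between 2 genes over the 6 arrays, each centred on its own mean, among 5696 other symbols. Nearest to Pparg were the proteasome subunit gene Psma2 (0.0143), the proton pump subunit gene Atp6ap1 (0.0224) and the elongin subunit gene Eloc (0.0267), against a median of 0.249 over all. Nearest to Adipoq were the monoglyceride lipase gene Mgll (0.0208), the sterol reductase gene Dhcr7 (0.0424) and the acyl-CoA synthetase gene Acsbg1 (0.0486), against a median of 0.276. Nearest to Cidec were Rgs3 (0.102), a regulator of G protein signalling, Lcat (0.109), which esterifies cholesterol in lipoproteins, and the Wnt receptor gene Fzd2 (0.110), against a median of 0.590. These distances describe 6 arrays and rest on small differences where a gene hardly varied.

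The size of the changes depended on the scaling. Spike-in scaling rested on the median of only 4 spike-in probes. It moved the median change of all genes to −0.34, against 0.03 with the 75th percentile, and turned Cebpa, Adipoq and Fasn below 0. It did the same to the Fabp4 spot at the scanner limit, from which no change is taken. Relative to that shifted median the changes were 1.05 for Cidec, 0.85 for Scd and 0.61 for Angptl4. They lay between −0.15 (Pparg) and 0.14 (Cebpa) for the other measured genes except Fabp4. Of 24 other ways to process the arrays, Cidec was called in 22, Scd in 15 and Angptl4 in 8, and the direction of these 3 was the same in all 24. With slide as a fixed block or within 1 slide, where LIPUS is set against 1 control array, the changes were 0.92 for Cidec, 0.83 for Scd and 0.49 for Angptl4 and none of the 3 passed. Both settings rest on 1 control array, and whether the changes depend on the slide was not tested.

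**Figure D5:**
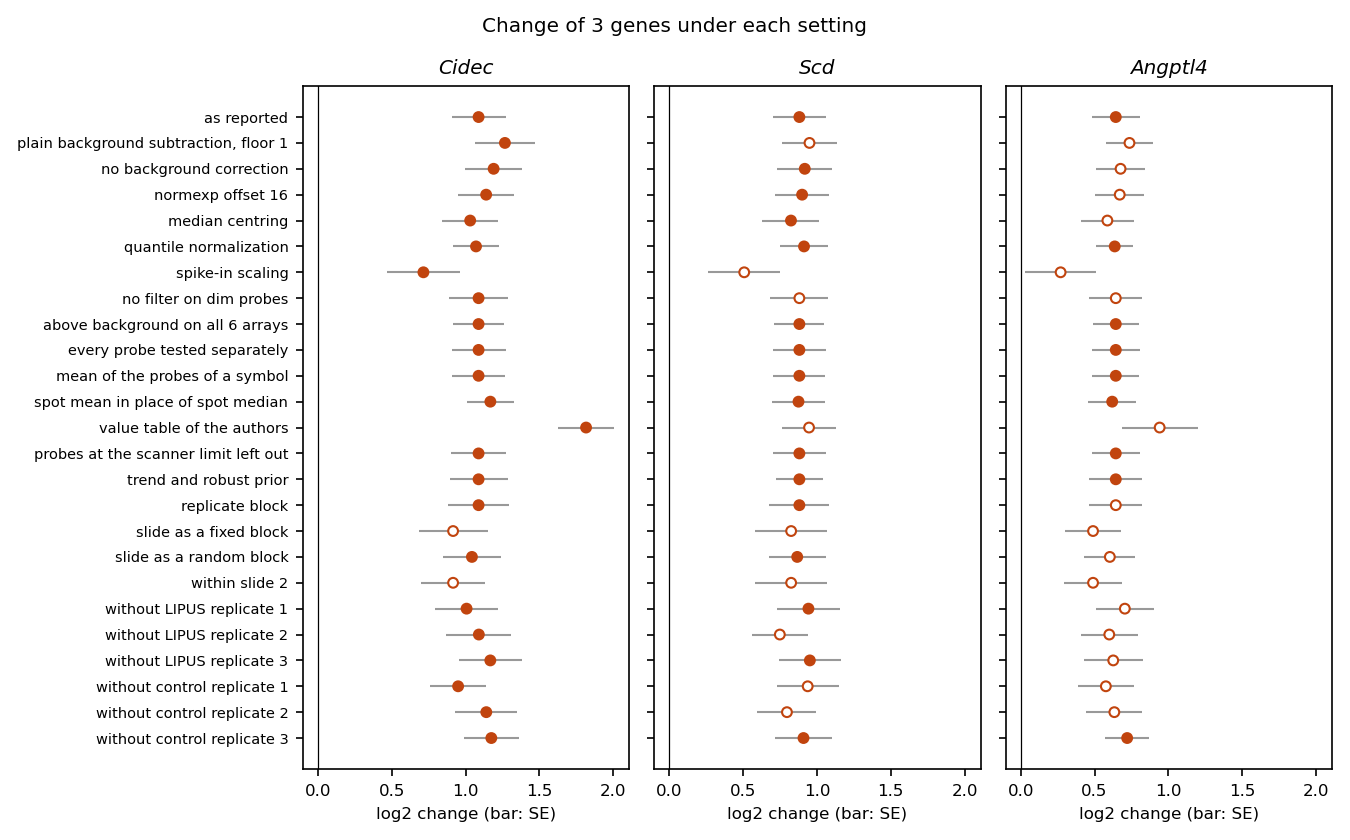
Log2 change, LIPUS minus control, of Cidec, Scd and Angptl4 as reported and with 24 other ways to process the arrays, with SE bars; filled points passed (limma adjusted p under 0.05) and open points did not. All points lie above 0, and the filled ones number the most for Cidec and the fewest for Angptl4.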

How the data were processed

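RNA was measured on 6 single-colour arrays, 3 of LIPUS-treated and 3 of control rat bone marrow cells. Per the file headers, the deposited spot tables give spot and local background brightness as intensity, with no normalization, up to a scanner limit of 65535, the percent of pixels at that limit, and spot quality as a score. The authors also deposited a value table on a log2 scale, known from its values (75th percentile of 0 in every column; column medians from −2.85 to −2.37), in which higher is brighter; how they made it stays unknown, and its column-wise powers of 2 above the minimum were whole for 98.7% to 98.9% of probes (tolerance 0.01). It served as an alternative and for saturated spots.

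The processing started from limma's normexp background correction (offset 50) of the spot medians, on the log2 scale. Levels are means over the spots of a probe minus the 75th percentile of gene probes on that array. Probes were kept when above the 95th percentile of 153 negative-control spots on at least 3 of 6 arrays. Where a symbol had several probes, the one with the highest mean was used. Symbols came from RefSeq GRCr8, used for names and promoters only. LIPUS and control were compared with limma 3.58.1 in R 4.3.3 (lmFit, eBayes, two-sided), adjusted by Benjamini-Hochberg over 21847 genes and unnamed probes at 0.05. The fit was tested on simulated data.

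The named genes are the 10 members with each of their probes, in each pathway list up to 3 that passed and 1 with the smallest p that did not, and the 3 nearest profiles of Pparg, Cidec and Adipoq. Of these, 1 gene is not reported here and stands in the counts alone. The members and all lists were chosen with earlier results of these data known. LIPUS and control replicates share numbers, but deviations of same-numbered arrays correlated at only −0.01 to 0.01, so the numbers were not taken as pairs. Alternatives changed the background correction, scaling, filter, probe rule, source of values, limma prior, replicate block, slide block and the arrays used. Slides are inferred from the first spot's position and the grid's tilt, as the labels name none. Figures used matplotlib 3.10.9 (Python 3.11.15).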

Additional observations from a re-analysis of the deposited data

How the results depend on the processing

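The count of genes called, 1449 of 21847, was 612 with plain background subtraction, 3599 with spike-in scaling, 655 with no filter on dim probes, 805 in the authors' value table, 2348 with a trended robust prior and 282 with slide as a fixed block. It was 0 within slide 2, where 3339 had an unadjusted p under 0.05 in limma, and 642 to 2168 when 1 array was left out. Of the calls, 632 of 1449 were higher, against 472 of 1462 with median centring and 158 of 3599 with spike-in scaling. The 3 called adipocyte genes became 1 with plain subtraction, spike-in scaling, no filter or the value table, 0 with slide as a fixed block (3 of 9 at an unadjusted p under 0.05 in limma) or within slide 2 (2 of 9), and 1 to 3 with 1 array left out. The 4 called pathway genes became 2 with plain subtraction, 7 with quantile normalization, 22 with spike-in scaling, 9 with probes above background on all 6 arrays, 8 with spot means, 16 with the trended robust prior, 1 with slide fixed, 0 within slide 2 and 3 to 12 with 1 array left out. Slide as a random block (correlation 0.209) gave 1013 genes, 2 adipocyte and 4 pathway genes. The replicate block gave 1175 genes and lost Angptl4 (limma adjusted p = 0.0727), and the arrays did not each correlate best with their own number. Spike-in scaling turned Adipoq to −0.26, Cebpa to −0.20, Fasn to −0.26 and Fabp4, whose spot was at the scanner limit, to −0.13. Averaging probes turned Lpl to 0.18 and Mettl7a to 0.16, and leaving out control 3 turned Adipoq to −0.015 (−0.015 to 0.20 over the arrays left out). Alternatives chosen after seeing the data gave 8 pathway genes with spots left out that the image software had marked. In the value table with slide fixed they gave 0 genes (3336 at an unadjusted p under 0.05 in limma), 0 adipocyte genes (2 of 9) and 0 pathway genes, and within slide 2 again 0 (2816), 0 (2 of 9) and 0. In the value table with 1 array left out they gave 246, 129 and 232 genes without LIPUS 1, 2 and 3, 615 without control 3, 0 to 1 adipocyte genes and 0 to 5 pathway genes, and 0 genes without control 1 (3282 at an unadjusted p under 0.05 in limma) or control 2 (3575). Without control 3 that table read −0.094 for Adipoq and −0.014 for Fasn. The causes were not tested.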
